A study of Homo sapiens with 25 samples.

Results

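The genes described here are ABCA3, PPP1R9A, PLAAT3, CHRNB1, REEP2, SYNGR2, MYEF2, NALCN, CYFIP2 and CLU, 10 of the 58302 genes counted in hiF-T cells. They were chosen by their counts: both libraries made under LSD1 inhibition held more reads of them than the DMSO library and the library without drug. Their difference between LSD1 inhibition and the controls is therefore given as a description, without a test. All 10 passed the filter on low counts in that comparison, which kept 14002 genes, and in the comparisons of the dye gates.

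LSD1, encoded by KDM1A, is a demethylase that erases the methyl marks of active promoters and enhancers from histone H3. It works within the CoREST complex beside histone deacetylases and is brought to promoters by repressors such as REST, SNAI1 and GFI1. REST is known for keeping genes of neurons silent in other cell types. DOT1L is a histone methyltransferase whose mark lies over transcribed genes.

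The cells were hiF-T, a human fibroblast-like line that carries hTERT and was derived from BJ skin fibroblasts, and all libraries were labelled wild type. Bulk poly(A) RNA was sequenced in 25 libraries. Of 5 libraries in the drug set, replicate 1 supplied cells with DMSO, with LSD1 inhibited and with DOT1L inhibited, and replicate 2 supplied untreated cells and cells with LSD1 inhibited. The sort set held 20 libraries of undrugged cells, 4 replicates each of ungated cells and of cells gated on low, midlow, midhigh or high dye accumulation. The labels name no compound, dose or duration, nor the dye level of slowly dividing cells. Replicate 1 of LSD1 inhibition had DMSO beside it and replicate 2 had untreated cells, so the kind of control and the replicate cannot be told apart. Whether replicates were separate cultures is not stated beyond their being called biological, and p-values measure the spread between these libraries.

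Gene counts ran from 15015039 to 20030093 per library. Levels are given as counts per 1000000 gene counts (CPM), scaled between libraries by the TMM method, and 3 counts, the limit that a count of 0 allows, equal 0.150 to 0.200 CPM. The fibroblast label was checked with 12 fibroblast markers, none of which was at 0 in any group and whose CPM summed to 8533 to 13890 per library. The markers differed widely, and COL1A1 averaged 3330 CPM over the 25 libraries. THY1, named after its value was seen, averaged 0.487 CPM, and its lowest high dye library had 0.114 CPM. Markers of other cell types in which members are well known gave low sums with single exceptions. In the drug libraries 6 alveolar type II markers summed to 1.66 CPM with DMSO, 0.857 without drug and 1.05 to 2.93 under LSD1 inhibition, most of it LAMP3, while SFTPA1 was at 0 in all 25 libraries. For 7 skeletal muscle markers the sums were 10.5, 11.2 and 10.5 to 12.3 CPM, led by TTN at a mean of 9.37 CPM, with MYOG at 0 throughout. For 6 markers of myelinating glia they were 1.11, 1.53 and 1.67 to 3.19 CPM, led by MBP at a mean of 0.712 CPM, with SOX10 at 0 throughout. The 12 neuron markers summed to 422.9, 195.7 and 157.3 to 352.3 CPM, most of it NEFM. KDM1A itself stood at 146 CPM with DMSO, 121 without drug, and 138 and 113 under LSD1 inhibition, which is no check of a drug that acts on the protein.

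The bases upstream of 8 of the 10 genes were matched in RefSeq (GRCh38.p14), as 11 windows of 250 bases before an annotated start. A set of 4 is shown, 5′ to 3′ on the gene's strand and cut back to lie outside coding-gene exons, because these genes have the highest ratio under LSD1 inhibition (ABCA3), the lowest adjusted p across the dye gates (REEP2, CYFIP2) or differ under LSD1 inhibition with no call across the dye gates (NALCN). Capitals mark matches, on either strand, to the E-box CAGGTG, the GC box GGGCGG and the p53 motif CATGTC.
ABCA3, chr16:2340747-2340978, minus strand: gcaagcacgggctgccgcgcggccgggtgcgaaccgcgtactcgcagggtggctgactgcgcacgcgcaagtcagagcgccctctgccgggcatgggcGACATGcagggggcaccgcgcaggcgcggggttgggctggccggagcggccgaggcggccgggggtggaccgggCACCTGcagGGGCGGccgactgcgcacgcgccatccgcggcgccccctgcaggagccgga
REEP2, chr5:138438807-138439016, plus strand: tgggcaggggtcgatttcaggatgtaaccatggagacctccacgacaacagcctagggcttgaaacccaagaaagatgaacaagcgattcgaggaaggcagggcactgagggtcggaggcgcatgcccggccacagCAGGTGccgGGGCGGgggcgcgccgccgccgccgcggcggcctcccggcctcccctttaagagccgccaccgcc
CYFIP2, chr5:157265873-157266078, plus strand: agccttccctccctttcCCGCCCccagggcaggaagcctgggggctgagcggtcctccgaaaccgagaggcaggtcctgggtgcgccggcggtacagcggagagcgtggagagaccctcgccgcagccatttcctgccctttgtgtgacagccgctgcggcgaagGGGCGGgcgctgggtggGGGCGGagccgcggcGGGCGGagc
NALCN, chr13:101416509-101416758, minus strand: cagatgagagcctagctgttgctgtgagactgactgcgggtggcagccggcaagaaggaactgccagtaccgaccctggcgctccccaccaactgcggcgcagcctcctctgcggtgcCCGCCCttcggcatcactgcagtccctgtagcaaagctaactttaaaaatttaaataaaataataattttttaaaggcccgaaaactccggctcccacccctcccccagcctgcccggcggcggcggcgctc

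In the full windows, a GC box stood in 7 of 11 windows, which belong to 7 of the 8 genes, against 42.6% of the 35116 RefSeq windows of the same length. PLAAT3 was the gene without one. An E-box, the motif bound by SNAI factors, stood in 4 of 11 windows (ABCA3, CHRNB1, CYFIP2 and REEP2), against 17.5% of all windows. For CYFIP2 it lay in the window of another annotated start, chr5:157269074-157269323, and not in the one shown. GC content was 79.2% in the ABCA3 window, 76.4% in the CYFIP2 window shown, 68.8% in that of REEP2 and 58.8% in that of NALCN. The windows not shown had from 52.4% (CYFIP2) to 76.0% (SYNGR2). Over all windows the median was 58.0% and the quartiles were 46.4% and 68.0%. The windows of PLAAT3 overlap each other, as do those of SYNGR2, so the 11 are not independent. The left arm of the REST element, CAGCACC, was in none of the 11 (6.16% of all windows), and its right arm, GGACAGC, was in CHRNB1 (4.76%). The GFI1 core AAATCAC (2.74% of windows) and the AP-1 site TGANTCA (6.57%) matched none, and the p53 motif matched ABCA3 (6.39%). These matches describe letters within the windows and no binding was measured.

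Under LSD1 inhibition the 10 genes stood from 2.02-fold (CYFIP2) to 19.2-fold (ABCA3) above the mean of the controls. Both LSD1 inhibition libraries lay above both controls for 18.1% of all genes and below both for 15.6%. The first, met by 2534 genes, is a condition that these 10 were chosen to meet, so nothing is read from their number. By itself it does not define the 10. By the gap between the lower LSD1 inhibition library and the higher control they ranked from 1 (ABCA3) to 110 (CYFIP2) among the 14002 genes. An edgeR fit of this contrast, used only for the share of all genes it calls, called 16 genes, or 0.114% of those tested, all of them higher. The 10 are not all of the genes with ratios of this size. Others that met the same condition were TM7SF2 (log2 ratio 2.63), IGFBP3 (1.70), ATP6V0E2 (1.68) and ARFGEF3 (1.62). SQOR (1.39), PCBD1 (1.32), ACTA2 (1.17) and WNT16 (1.12) met it too. AMIGO2 (0.92) met it with a ratio under the lowest of the 10 (CYFIP2, 1.01). These other genes were named after their values were seen and are not a complete list. The median log2 ratio was 1.73 over the 10 genes and -0.01 over all genes, with a prior count of 2 added before each log2 ratio.

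**Figure D1:**
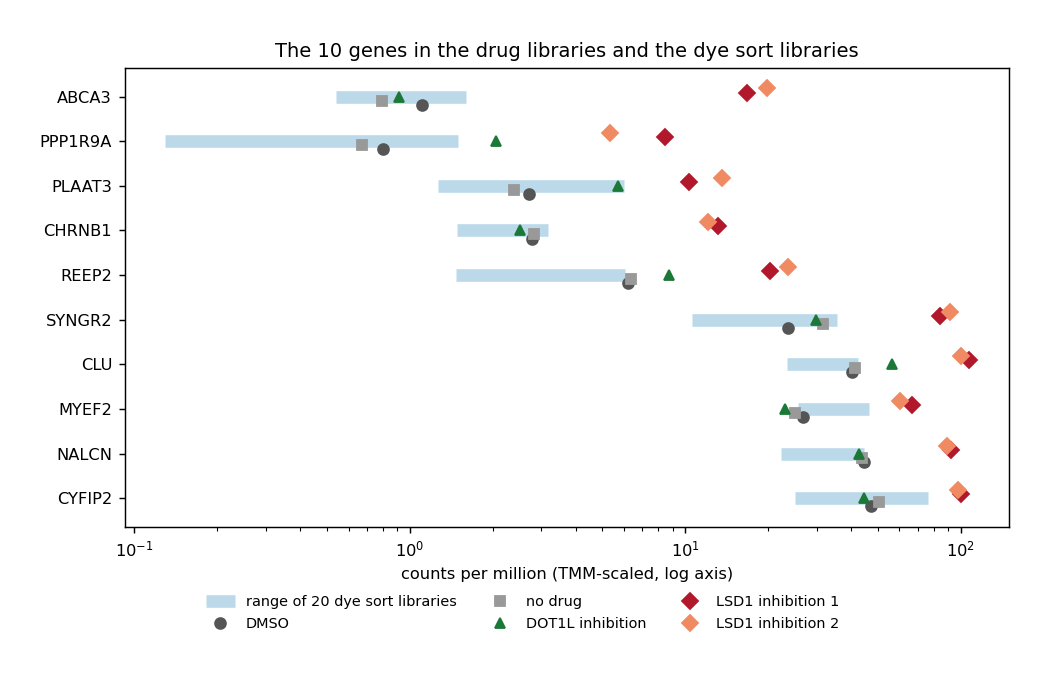
Level of each gene in the 5 drug libraries (points) and the range over the 20 dye sort libraries (bars), in TMM-scaled CPM on a log axis. Both LSD1 inhibition points lie to the right of every other library for all 10 genes. DOT1L inhibition lies above the sort range for PPP1R9A, REEP2 and CLU, as do both controls for REEP2.

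The genes of lipid handling include the one with the highest ratio. ABCA3, a transporter that loads phospholipids into the lamellar bodies of alveolar type II cells, lies at chr16:2275881-2340746 on the minus strand (ENSG00000167972, GRCh38). It had 18 counts with DMSO and 13 without drug, against 263 and 320 under LSD1 inhibition, or 1.11, 0.796, 16.8 and 19.8 CPM. The lower of the LSD1 inhibition libraries was 10.5 times the highest of the 20 sort libraries, the widest gap of the 10 genes. The ABCA list holds 10 further genes that could be measured in the drug libraries, of which 2 were above and 1 below both controls in both LSD1 inhibition libraries. ABCA2, the relative with the highest mean level, had 24.8 and 31.7 CPM in the controls and 29.1 and 34.4 CPM under LSD1 inhibition, and its groups overlapped. PLAAT3 is a phospholipase and acyltransferase of adipose tissue (ENSG00000176485, chr11:63573195-63616883, minus strand, PLA2G16 in GENCODE 29). It had 2.71 CPM with DMSO and 2.39 without drug, and 10.3 and 13.6 CPM under LSD1 inhibition. None of its 4 relatives reached the filter, and the strongest, PLAAT1, averaged 0.365 CPM.

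Of the receptor and channel genes, CHRNB1, the beta subunit of the nicotinic acetylcholine receptor of muscle (ENSG00000170175, chr17:7445061-7457707, plus strand), stood at 2.77 and 2.82 CPM in the controls. Under LSD1 inhibition it stood at 13.1 and 12.1 CPM. No other subunit or endplate gene of that list lay above both controls in both libraries and 2 lay below both, out of 4 that were measured. AGRN, the nerve-derived organiser of the endplate, had 404 and 471 CPM in the controls and 449 and 518 CPM under inhibition. NALCN, the sodium leak channel that sets resting potential (ENSG00000102452, chr13:101053776-101416492, minus strand), had 44.6 CPM with DMSO, 43.9 without drug, and 92.4 and 89.2 CPM under LSD1 inhibition. Of its partners, UNC79 had 0.554 and 0.673 CPM in the controls and 0.319 and 0.434 CPM under inhibition, UNC80 averaged 0.0435 CPM, and NALF2 was at 0 in all libraries.

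The membrane-shaping genes were REEP2 and SYNGR2. REEP2, which curves membranes of the endoplasmic reticulum (ENSG00000132563, chr5:138439017-138446969, plus strand), had 6.21 and 6.37 CPM in the controls and 20.3 and 23.7 CPM under LSD1 inhibition. Among 12 measured relatives, 1 lay above and 3 lay below both controls. REEP5, a widely expressed relative, had 189 and 159 CPM in the controls and 189 and 148 CPM under inhibition. SYNGR2, a vesicle membrane protein of non-neuronal cells (ENSG00000108639, chr17:78168558-78173527, plus strand), had 23.7 CPM with DMSO and 31.6 without drug, and 84.3 and 91.6 CPM under inhibition. Its neuronal relative SYNGR3 had 0.923 and 1.22 CPM in the controls and 2.30 and 2.23 CPM under inhibition, while SYNGR1 had 7.51 and 5.94 against 4.65 and 4.96 CPM.

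PPP1R9A and CYFIP2 bear on the actin cytoskeleton. PPP1R9A encodes neurabin, which binds actin and brings protein phosphatase 1 to synapses (ENSG00000158528, chr7:94907202-95296415, plus strand). It had 13 and 11 counts in the controls and 133 and 86 under LSD1 inhibition, or 0.800, 0.673, 8.48 and 5.33 CPM, and so differed most between the LSD1 inhibition libraries. PPP1R9B, the paralog spinophilin, stood at 82.8 and 83.6 CPM in the controls and at 81.6 and 87.3 CPM under inhibition. CYFIP2, a subunit of the WAVE complex that starts branched actin (ENSG00000055163, chr5:157266079-157395595, plus strand), had 47.5 and 50.7 CPM in the controls and 100.5 and 97.9 CPM under inhibition. Its paralog CYFIP1 had 204 and 226 CPM against 215 and 235 CPM. Of the 10 other WAVE genes measured, none lay above both controls in both libraries and 4 lay below both. CYFIP2 overlaps ADAM19 on the opposite strand over 62 bases, and the library kit does not mark strand. ADAM19 stood at 248 and 251 CPM in the controls and 307 and 296 CPM under inhibition, and its part in the CYFIP2 counts was not tested.

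MYEF2, an RNA-binding repressor of the myelin basic protein gene (ENSG00000104177, chr15:48134631-48178517, minus strand), had 26.7 and 25.2 CPM in the controls and 66.9 and 60.2 CPM under LSD1 inhibition. HNRNPM, its paralog, had 405 and 339 against 373 and 330 CPM. CLU encodes clusterin, a secreted chaperone and complement inhibitor (ENSG00000120885, chr8:27596917-27615031, minus strand). It had 40.4 and 41.3 CPM in the controls and 107.0 and 100.1 CPM under LSD1 inhibition. All other genes that overlap the 10 stayed at or below 0.629 CPM in each of the 25 libraries. Per kilobase of exon, the 10 genes ran in DMSO from 0.0717 CPM for PPP1R9A to 6.11 for CLU, and under LSD1 inhibition from 0.619 for PPP1R9A to 21.6 for SYNGR2.

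**Figure D2:**
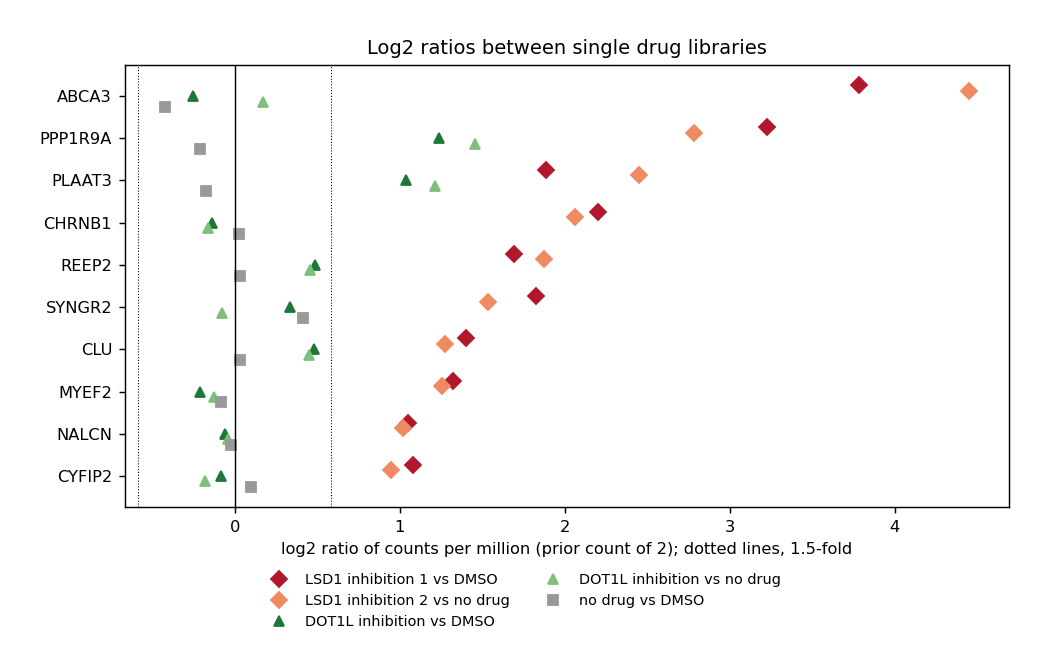
Log2 ratio of CPM between single drug libraries for each gene, with a prior count of 2, and dotted lines at 1.5-fold. The 2 LSD1 inhibition ratios lie between 0.95 and 4.45, while the DOT1L inhibition ratios pass 1.5-fold for PPP1R9A and PLAAT3.

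Of 18 measured genes of the LSD1 complex and its recruiters, 1 lay above both controls in both LSD1 inhibition libraries and 3 below. Across all genes these shares were 18.1% and 15.6%. The 1 above was GSE1, at 41.9 and 40.3 against 56.2 and 64.4 CPM. REST was among the 3 below, at 54.8 and 56.6 against 43.7 and 47.8 CPM. Both are named after their values were seen. The neuronal genes known to lie under REST had a median log2 ratio of 0.04 over 16 measured, 5 of them above and 1 below both controls. SCN2A, a sodium channel gene with one of the highest levels of that list, had 12.1 and 11.4 CPM in the controls and 15.9 and 16.9 CPM under inhibition. Other measures moved with the drug: fibroblast markers summed to 11790 and 11770 CPM in the controls and 13360 to 13890 CPM under LSD1 inhibition, with 6 of the 11 measured lying above both controls and 1 below. Of 10 proliferation genes 3 lay below both controls and none above, with a median log2 ratio of -0.19. All 3 epithelial markers that were measured, of 6, lay above both controls in both LSD1 inhibition libraries. EPCAM had 0.492 and 0.612 against 2.93 and 2.79 CPM, KRT8 had 37.2 and 47.1 against 49.6 and 66.4 CPM, and KRT18 had 183 and 225 against 254 and 286 CPM. KRT18 also reached 289 CPM in a high dye library. The markers under the filter did not rise: CDH1 had 0.123 and 0.245 against 0.0 and 0.062 CPM, and KRT14 0.123 and 0.184 against 0.0 and 0.062 CPM. KRT5 was at 0.0 in these libraries. The 2 glial markers measured were also above both controls. The part of these in the levels of the 10 genes was not tested.

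DOT1L inhibition had 1 library, which allows no test. It was compared with the DMSO library, which is also a control of LSD1 inhibition. Across all genes, 11.3% differed by more than 1.5-fold, 7.87% higher and 3.44% lower. Of the 10 genes 2 were higher by that much and none was lower, and 5 of 10 lay above DMSO at all, as did 49.8% of all genes. PPP1R9A had 2.05 CPM under DOT1L inhibition against 0.800 CPM with DMSO, from 36 and 13 counts, a ratio of counts per library of 2.60 with an exact 95% interval of 1.34 to 5.33. PLAAT3 had 5.69 against 2.71 CPM, from 100 and 44 counts, a ratio of 2.13 (1.48 to 3.11). These intervals cover counting error only. Against the library without drug, 14.9% of all genes differed by more than 1.5-fold, 8.93% higher and 6.0% lower, and of the 10 the same 2 genes were higher.

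Set beside each other, the log2 ratios were 3.00 under LSD1 inhibition and 1.24 under DOT1L inhibition for PPP1R9A, and 2.17 and 1.04 for PLAAT3. REEP2 had 8.77 CPM under DOT1L inhibition and CLU 56.5 CPM, log2 ratios of 0.49 and 0.48, and both levels exceeded those of all 20 sort libraries. For REEP2 both controls did so too, at 6.21 and 6.37 CPM against a highest sort library of 6.07 CPM. ABCA3, with the highest ratio under LSD1 inhibition, had 0.911 CPM under DOT1L inhibition, between its controls. CHRNB1 at 2.50 CPM, NALCN at 42.8, MYEF2 at 23.1 and CYFIP2 at 44.7 CPM were below both controls. SYNGR2 at 29.9 CPM lay above DMSO and below the library without drug. Under DOT1L inhibition the median log2 ratio was 0.14 for the 10 genes and -0.00 for all genes.

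The dye gates were not used to choose the genes and allow a test. In high against low dye, 4 of the 10 genes were higher and none was lower by edgeR (quasi-likelihood F test, p adjusted by Benjamini and Hochberg's method over 14592 genes). Across all genes the test called 17.7%, with 9.39% higher and 8.35% lower. The genes that rose were REEP2, CYFIP2, PPP1R9A and CLU. With the replicate number as a block, since libraries of the same number deviated together, 37.2% of all genes were called, 19.8% higher, and SYNGR2 joined as the fifth gene. The other 5 genes did not pass with or without the block.

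REEP2 differed clearly. Low dye libraries had 1.89, 1.47, 2.13 and 1.85 CPM in replicates 1 to 4, and high dye libraries 4.51, 3.39, 6.07 and 5.15 CPM. The gates did not overlap, and high dye was above low dye in 4 of 4 replicates. The log2 fold change was 1.39 ± 0.29 (SE; edgeR adjusted p = 0.004). The midlow and midhigh means lay between, at 2.46 ± 0.447 and 3.72 ± 0.865 CPM (SD, n = 4), and the level rose at each step in 3 of 4 replicates. Among its relatives the same test called RTN2 alone, a muscle reticulon, with a rise of 0.75 ± 0.25 on the log2 scale (edgeR adjusted p = 0.042), and with the replicate block 5 of 12 rose and 2 fell.

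CYFIP2 rose from 37.5, 25.1, 34.8 and 34.0 CPM in low dye to 76.3, 58.2, 61.9 and 41.5 CPM in high dye. High dye exceeded low dye in each replicate, and even its lowest library, replicate 4, stood above all low dye libraries. The log2 fold change was 0.87 ± 0.14 (SE; edgeR adjusted p = 8.3e-04). Of 11 other WAVE complex genes none was called higher and ABI2 was called lower, by 0.30 on the log2 scale (edgeR adjusted p = 0.046), while with the replicate block 2 were higher and 4 lower. CYFIP1 changed by -0.07 ± 0.06 and was not called.

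PPP1R9A stood at 0.252, 0.356, 0.129 and 0.493 CPM in low dye and 0.469, 0.700, 1.5 and 1.37 CPM in high dye. The gates overlapped, since replicate 1 of high dye lay under replicate 4 of low dye, yet high dye was higher within each of the 4 replicates. The log2 fold change was 1.68 ± 0.51 (SE; edgeR adjusted p = 0.029). It rests on few reads. In fits without the block the call was lost on leaving out 1 library, with an edgeR adjusted p of up to 0.11. This held for low dye replicate 1, 2 or 3 and for high dye replicate 3 or 4. With the replicate block and all libraries the log2 fold change was 1.63 ± 0.44 (edgeR adjusted p = 0.0058). PPP1CC, a catalytic subunit of the phosphatase that neurabin binds, fell by 0.38 on the log2 scale (edgeR adjusted p = 0.0025).

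CLU had 23.3, 24.6, 28.9 and 30.8 CPM in low dye and 31.2, 31.7, 40.9 and 42.5 CPM in high dye. All high dye libraries were above all low dye libraries, by a small margin. The log2 fold change was 0.45 ± 0.15 (SE; edgeR adjusted p = 0.039). Without the block the call was lost on leaving out any of the same 5 libraries as for PPP1R9A (edgeR adjusted p up to 0.12). With the replicate block and all libraries the log2 fold change was 0.45 ± 0.08 (edgeR adjusted p = 1.6e-04). Groups that did not overlap in this direction made up 9.16% of all genes and 3 of these 10, REEP2, CYFIP2 and CLU. LRP1, a receptor that takes up clusterin-bound cargo, rose by 0.96 ± 0.16 on the log2 scale (edgeR adjusted p = 0.0013). It was the 1 gene called of 9 clusterin receptors and complement regulators, of which 6 rose and 1 fell with the block.

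SYNGR2 was higher in high dye in each of the 4 replicates, but its replicates stood far apart. Low dye libraries held 15, 10.8, 19.9 and 20.8 CPM and high dye libraries 27.1, 13.7, 35.5 and 23.1 CPM. Replicate 2 was lowest in both gates, so the gates overlapped. Without the block the log2 fold change was 0.59 ± 0.29 (edgeR adjusted p = 0.16), and with the replicate block it was 0.57 ± 0.11 (edgeR adjusted p = 4e-04). SYNGR1 rose by 1.29 ± 0.27 without the block (edgeR adjusted p = 0.0043).

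The other 5 genes gave no call. MYEF2 had 39.0 ± 7.53 CPM in low dye and 31.7 ± 9.82 CPM in high dye (SD, n = 4), a log2 difference of -0.29 ± 0.19 (edgeR adjusted p = 0.32, and 0.051 with the block). Left without high dye replicate 4, at 46.4 CPM the highest of its gate, MYEF2 was called lower at -0.53 (edgeR adjusted p = 0.037). Its paralog HNRNPM fell by 0.41 with all libraries (edgeR adjusted p = 0.018). CHRNB1 differed by 0.27 ± 0.25, ABCA3 by 0.11 ± 0.37, PLAAT3 by 0.01 ± 0.51 and NALCN by -0.09 ± 0.19 on the log2 scale. ABCA3, PLAAT3 and NALCN changed sign when single libraries were left out.

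**Figure D3:**
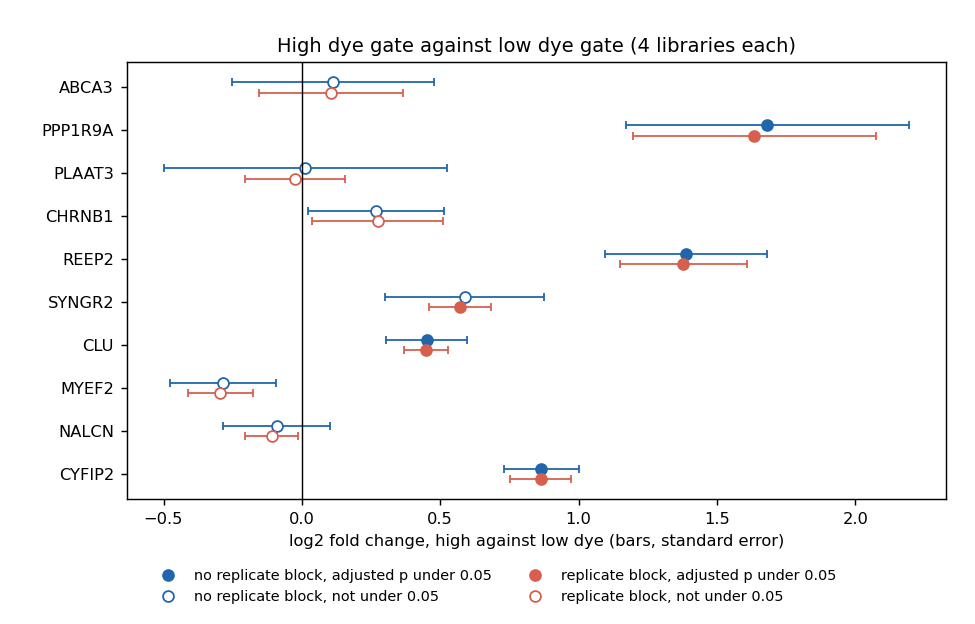
Log2 fold change of each gene between high and low dye with its standard error (bars), without and with the replicate number as a block. Filled points have an edgeR adjusted p under 0.05: 4 genes without the block and 5 with it, SYNGR2 being the fifth.

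Over the 4 gates in order, taken as equal steps, the same 4 genes rose with dye and none fell, where edgeR called 26.2% of 14419 genes, 14.0% higher and 12.3% lower. REEP2 rose by 0.48 ± 0.07 per gate on the log2 scale, PPP1R9A by 0.51 ± 0.16, CYFIP2 by 0.29 ± 0.04 and CLU by 0.16 ± 0.04. Their edgeR adjusted p-values were 1.7e-04, 0.025, 3.6e-04 and 0.011. PPP1R9A lost the call without low dye replicate 1 or 3 or high dye replicate 3 or 4 (edgeR adjusted p up to 0.088). With the replicate block, 43.8% of genes were called, 23.1% higher and 20.7% lower. SYNGR2 then rose by 0.20 ± 0.04 per gate (edgeR adjusted p = 9e-05) and MYEF2 fell by 0.09 (edgeR adjusted p = 0.03). Without the block the slope of MYEF2 was not called (edgeR adjusted p = 0.24). SYNGR2 was called without the block when high dye replicate 2 was left out, and MYEF2 when high dye replicate 4 was (edgeR adjusted p = 0.021 and 0.023).

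Between the inner gates, midhigh and midlow dye, none of the 10 genes was called, and neither was any of the 14592 genes (0.0%) by edgeR, although 1891 had an unadjusted p under 0.05 and DESeq2 called 122. With the block edgeR called 10.8% of genes, 5.52% higher and 5.27% lower, and again none of the 10. CYFIP2 had 45.8, 42.1, 49.3 and 48.6 CPM in midhigh dye and 40.1, 35.7, 40.0 and 39.2 CPM in midlow dye. The log2 difference was 0.27 ± 0.14 (edgeR adjusted p = 0.40). These gates did not overlap, but the share of all genes without overlap was not counted here, so nothing is read from it. ABCA3 reached 1.59, 1.17, 1.44 and 0.571 CPM in midhigh dye against 0.853, 0.544, 0.891 and 0.552 CPM in midlow dye. It was highest in midhigh dye in 3 of 4 replicates, at 0.76 ± 0.37 (edgeR adjusted p = 0.39).

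**Figure D4:**
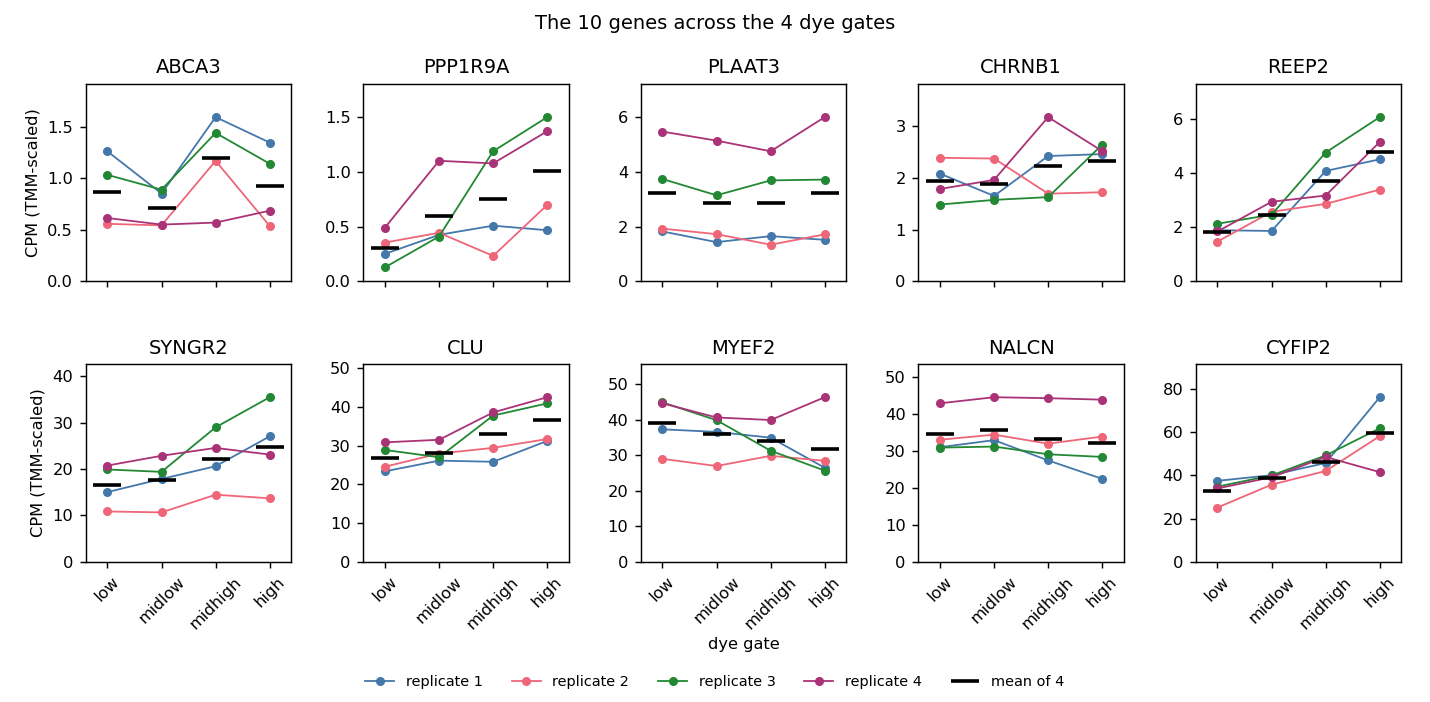
TMM-scaled CPM of each gene in the 4 dye gates, from 0, with 1 line per replicate and a bar at the mean of 4. REEP2, CYFIP2 and CLU rise in all replicates from low to high dye, while replicate 4 lies above the other replicates in every gate for PLAAT3 and NALCN.

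The gates differed also in other genes that bear on these results. Of 10 proliferation genes 7 fell and 1 rose in high against low dye: MKI67 fell by 0.87 and MCM5 by 1.06 on the log2 scale, and CDKN1A, an inhibitor of the cell cycle, rose by 2.21 ± 0.30 (edgeR adjusted p = 3.4e-04). With the replicate block these counts were the same. Of 12 fibroblast markers 3 rose, COL1A2, COL3A1 and LUM, and with the block 7 rose and 2 fell. None of the 6 neuron markers tested was called without the block, and with it 5 rose and 1 fell. NEFM stood at 190 ± 160 CPM in low dye and 304 ± 255 CPM in high dye (edgeR adjusted p = 0.66, and 8.5e-05 with the block). The part of these in the changes of the 10 genes was not tested. In bulk RNA, more cells expressing a gene and more RNA per cell cannot be told apart.

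Of 17 neuronal genes under REST, 5 rose and none fell in high against low dye, and with the replicate block 10 rose and 1 fell. VGF and DISP2 were among them, and SCN2A went from 4.66 ± 0.870 to 13.8 ± 2.14 CPM (SD, n = 4; edgeR adjusted p = 1.8e-04). Among the ABCA relatives 4 of 9 rose and 1 fell. ABCA1, the cholesterol exporter, rose by 3.14 ± 0.57, ABCA2, ABCA7 and ABCA12 rose as well, and ABCA5 fell by 0.42, while ABCA3 gave no call. KDM1A itself fell by 0.37 on the log2 scale, from 174 ± 6.24 to 134 ± 18.8 CPM (edgeR adjusted p = 0.014). Its partner HDAC2 fell too, by 0.31, and RCOR3 and ZNF217 rose, out of 18 genes of the complex and its recruiters, of which 5 rose and 6 fell with the block.

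The 10 genes varied in unlike ways among the 16 gated libraries. The dye gate took 80.03% of the sum of squares of log2 CPM for REEP2 and 70.7% for CYFIP2, and the replicate number 10.03% and 11.5%. For PLAAT3 it was the reverse, with 1.52% for the gate and 96.5% for the replicate. Replicate 4 libraries of PLAAT3, ungated included, ranged from 3.64 to 6.01 CPM and replicate 1 libraries from 1.27 to 1.83 CPM, without overlap. NALCN followed, with 6.49% for the gate and 82.9% for the replicate, and SYNGR2 had 22.6% and 69.1%. CHRNB1 had most of its variation in neither. The medians over all genes were 25.7% for the gate and 36.1% for the replicate.

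**Figure D5:**
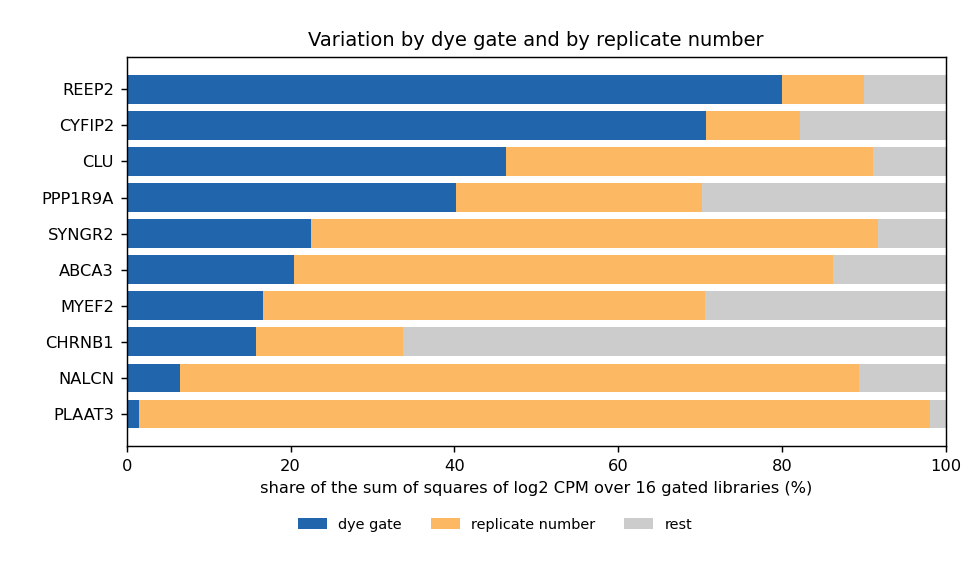
Share of the sum of squares of log2 CPM over the 16 gated libraries that goes with the dye gate, the replicate number and the rest, for each gene. REEP2 and CYFIP2 vary mostly by gate (80.03% and 70.7%), and PLAAT3 and NALCN mostly by replicate (96.5% and 82.9%).

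The levels under LSD1 inhibition were also set beside the sort libraries. Both LSD1 inhibition libraries exceeded all 23 other libraries for 10 of 10 genes, as they did for 4.17% of all genes, a count that the choice of the genes partly fixes. The lower of them exceeded the highest sort library 3.83 times for CHRNB1, 3.55 times for PPP1R9A and 3.35 times for REEP2. The margin was narrow for MYEF2 (1.30 times) and CYFIP2 (1.28 times), whose sort libraries spanned 25.1 to 76.3 CPM. The drug controls were not at the middle of the sort set for each gene. REEP2 was lower in all 20 sort libraries than in either control, CLU and CHRNB1 were lower in 18, and MYEF2 was higher than both controls in 17.

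Across the 9 group means of the study, the non-members whose standardised log2 CPM lay nearest to the mean of the 10 genes were SLC25A4 (root mean square distance 0.188), B4GAT1 (0.195), PCBD1 (0.205), TM7SF3 (0.206) and CRELD1 (0.212), out of 10184 genes with at least 5 CPM, whose median distance was 1.34. SLC25A4, the mitochondrial ADP/ATP carrier of muscle, had 35.5 and 36.7 CPM in the controls and 67.8 and 60.9 CPM under LSD1 inhibition. PCBD1 had 9.91 and 11.7 against 26.6 and 27.3 CPM. None of the 5 was called in high against low dye (edgeR adjusted p from 0.11 to 0.67). The 10 genes themselves lay 0.169 (CHRNB1) to 0.773 (MYEF2) from their mean, which includes them. The group means also include LSD1 inhibition, by which the genes were chosen. That choice partly fixes both these distances and the rise of the neighbours under LSD1 inhibition, so nothing is read from them.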

How the data were processed

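The deposited files hold raw counts per Ensembl gene and library, in which the authors applied no normalisation, per the values of the files. Reads were aligned with STAR and counted with HTSeq on hg38, per the submitters' processing notes. Versions, annotation release and strand setting are not given in the sources used here. Reads assigned to no feature (4.33% to 7.72%) and ambiguous reads (7.14% to 7.63%) were left out of library sizes. Coordinates are from GENCODE 29 (GRCh38), and 58039 of the 58302 gene IDs were found in it. No library was a copy of another (smallest chi-square per degree of freedom in a group 8.22). Gene counts of 15015039 to 20030093 per library put the limit for a gene at 0 at 3 counts, or 0.150 to 0.200 CPM.

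The members and gene lists were chosen with earlier results of these data known. All 10 members are named. Other genes are named from the lists, the 4 with the highest mean CPM and any called in high against low dye, plus the 5 most alike in pattern. Genes outside this rule, which the text marks or which give a marker at 0, relatives or an overlap, were chosen after their values were seen. Some list genes are counted but not reported by name here. Tests used edgeR 4.0.16 in R 4.3.3 (glmQLFit and glmQLFTest, TMM, filterByExpr with a minimum count of 10 and total of 15, calls at a Benjamini-Hochberg adjusted p under 0.05). The gates were compared within a single fit of the 20 sort libraries, and the trend used the 16 gated libraries. LSD1 inhibition was fitted only for the share of all genes called. Log2 ratios of drug libraries used a prior count of 2. Alternatives were RLE scaling, no filter, DESeq2 1.42.0, a replicate block, other controls and leaving out libraries. The test was checked on simulated counts.

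Replicate numbers paired the sort libraries: the residuals of all 40 pairs with the same number correlated above 0.1 across genes (0.146 to 0.618), against 16 of 120 with different numbers. The labels give the numbers but no shared day or culture.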

Additional observations from a re-analysis of the deposited data

Results flagged for a closer look

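In 50 groups of 4 sort libraries (10 genes in 5 groups), 2 held a library far from the other 3, where chance gives about 1 in 20. PPP1R9A in midlow dye replicate 4 stood at 1.10 CPM and the other replicates at 0.411 to 0.445 CPM. CHRNB1 in high dye replicate 2 stood at 1.72 CPM and the others at 2.46 to 2.64 CPM.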

How the results depend on the processing

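In high against low dye, RLE scaling, no filter and DESeq2 kept 4 genes called higher. The replicate block called 5433 genes against 2589, and the paired fits called all genes that the unpaired ones did. Fitting only the 8 compared libraries called 1497 genes and 2 of the 10, REEP2 and CYFIP2, with PPP1R9A under the filter and CLU at an edgeR adjusted p of 0.059. Leaving out 1 library called 1255 (without high dye replicate 3) to 2965 genes (without high dye replicate 4), 1519 without high dye replicate 1, with 2 to 4 of the 10 higher and 0 to 1 lower. In the trend, the replicate block called 6317 genes against 3784 and 1 of the 10 lower, and leaving out 1 library called 2514 (without high dye replicate 3) to 4149 genes, 3 to 5 of the 10 higher and 0 to 1 lower. Between the inner gates, edgeR called 0 genes, 1574 with the replicate block, 99 without a filter and 122 by DESeq2, none of them among the 10.

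For LSD1 inhibition edgeR called 16 genes, 2242 with a replicate block (2 pairs), 331 against DMSO alone, 232 against no drug alone, 116 by DESeq2 and 0 without a filter, where 1119 had an unadjusted p under 0.05. Leaving out an LSD1 inhibition library called 108 to 131, with the lone library assumed to vary like the others. Same-numbered drug libraries correlated at 0.501 in both pairs, a single free value. For DOT1L inhibition, 2 of the 10 passed 1.5-fold under each alternative, and the SYNGR2 ratio was -0.08 against no drug.

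Small differences changed sign. PLAAT3 was at -0.025 (high against low dye) and -0.0076 (trend) with the block and at -0.0016 in the trend without a filter. On leaving out 1 library, PLAAT3 ran from -0.48 to 0.39 (high against low dye), -0.34 to 0.46 (inner gates) and -0.14 to 0.12 (trend), ABCA3 from -0.13 to 0.34 (high against low dye), and NALCN from -0.28 to 0.042, -0.27 to 0.019 and -0.089 to 0.0001 in the same order as PLAAT3. The cause of these changes was not tested. Depth limits PPP1R9A most, with 2 to 25 counts in each sort library.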
